A study of Drosophila melanogaster with 4 samples.

Results

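The domains described here are the enriched regions of intermediate width, 10 to 20 kb, found by chromatin immunoprecipitation of LSD1 in fly heads. They were chosen by their width in the combined list of enriched regions, at least 10 kb and under 20 kb, on the chromosome arms 2L, 2R, 3L, 3R and X. This gave 632 domains among 10854 combined regions on these arms and 11016 in the whole list. The ChIP group comprised 2 libraries made with the LSD1 antibody Q3430, and the input group 2 libraries of chromatin that was not precipitated, all from heads of mixed adult Oregon-R flies of wild-type genotype. No mutant, treatment or second tissue was part of the series. Heads were sieved from flies of population cages, so each library pools many animals and all cell types of the head, and a domain cannot be assigned to one of them. Each ChIP library had its own list of regions, called replicate 1 and replicate 2 below. Whether the replicates came from separate batches of flies is not stated, and differences between them may be technical.

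LSD1 is a histone demethylase that takes methyl groups from a lysine in the tail of histone H3, a modification found at active promoters and enhancers. In flies it is encoded by Su(var)3-3, named as a suppressor of position-effect variegation, the patchy silencing of genes that lie next to heterochromatin. It works with the corepressor CoREST and with histone deacetylases. In a list of enriched regions, width is the distance from the first to the last base of a listed region. Whether the signal was called without a break inside a combined region is not stated. A domain of this size can hold many separate sites of binding, and one continuous stretch can be listed as several regions.

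Since the width of a combined region chose the domains, and the combined list stems from the replicate set, all values below are descriptions and no test was made. With 2 replicates, a two-sided exact sign-flip test could not give a p below 0.5. The depth behind each region is unknown, since read numbers were not among the data used here. Positions are on release 5 of the fly genome, as in the file headers. The gene table used here follows release 6, so no domain was assigned to a gene.

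The domains were few in number but held a large share of the enriched sequence. They made up 5.82% of the combined regions on the 5 arms, 19.8% of their covered length and 7.31% of the arms, 8.70 Mb in all. Their median width was 13172 bp, and 426 were of 10 to 15 kb against 206 of 15 to 20 kb. Regions of 20 kb or more numbered 287 and held 9.06 Mb, and the 1738 regions of 4 to 10 kb held 10.7 Mb. The width limits did not fall at a visible gap. The narrowest domains, 3L:17653762-17663782 and 3R:3767510-3777536, had widths of 10021 and 10027 bp, and the nearest regions outside, X:385726-395724 and 3R:1754970-1764958, had 9999 and 9989 bp. At the upper limit the domains X:11541778-11561762 and X:17613082-17633028 had 19985 and 19947 bp, and the regions just outside, 2L:16518170-16538286 and 3L:10635004-10655126, had 20117 and 20123 bp.

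All 5 arms held domains, at densities from 4.68 to 5.82 per Mb. X had 105 domains, or 4.68 per Mb. The autosome arms had 132 on 2L (5.74 per Mb), 123 on 2R (5.82), 132 on 3L (5.38) and 140 on 3R (5.02), together 5.46 per Mb. The ratio of X to autosomes was 0.858 for the domains, 0.618 for regions of 20 kb or more, 1.19 for regions of 4 to 10 kb and 1.13 for all combined regions. In the replicate lists, regions of 10 to 20 kb gave a ratio of 0.840 for replicate 1 and 0.418 for replicate 2, with a mean of 0.629 ± 0.299 (SD over n = 2). Among the upper 50% of domains by combined score the ratio was 1.41, so its direction changed with the domains taken.

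**Figure D1:**
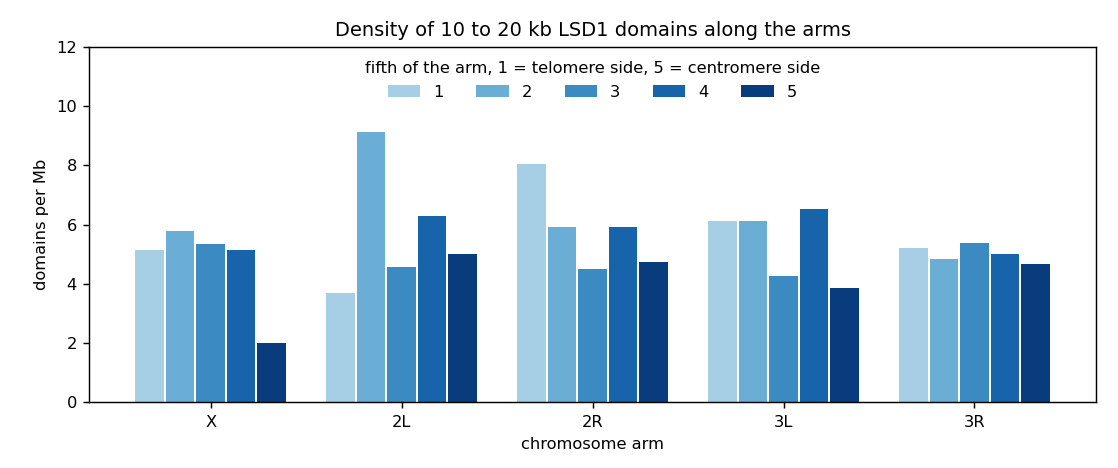
Bars give the number of 10 to 20 kb LSD1 domains per Mb (y axis) in 5 equal parts of each chromosome arm (x axis), from the telomere side (pale) to the centromere side (dark). The lowest bar is the centromere side of X, at 2.01 per Mb, and the highest the second part of 2L, at 9.13 per Mb.

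Over all arms the part nearest the centromere held the fewest domains, though not on 2L or 2R, and X showed the clearest drop there. Other enriched regions were sparse there too. When each arm was cut into 5 equal parts, the parts from the telomere side to the centromere side held 133, 150, 115, 137 and 97 domains over all arms. The same parts held 64, 54, 62, 66 and 41 regions of 20 kb or more. All combined regions were also least dense in the part nearest the centromere on X (83.8 per Mb), 2L (72.8), 2R (68.1) and 3L (70.7). On 3R this part, at 89.9 per Mb, was not the least dense. On X the part on the centromere side held 9, whereas the other parts held between 23 and 26. Arm 2L had its densest part second from the telomere, with 42 domains, and 17 at the telomere side. On 2R the telomere side was densest, with 34 domains, while 3R was even, with 26 to 30 in each part. The last 1 Mb beside the centromere held 9 domains in all, and each of these lay on 3R. The last 1 Mb at the telomere side held 27, with 4 on X, 4 on 2L, 6 on 2R, 8 on 3L and 5 on 3R.

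The longest stretches without a domain lay at the centromere side of 4 arms. They were X:21104799-22422827, 2L:21758751-23011544, 2R:1-2052641 and 3L:22826141-24543557, of 1318, 1253, 2053 and 1717 kb. On 3R the longest was 3R:1786163-3320673, of 1535 kb, also in the part nearest the centromere but with domains on both sides. These stretches were not free of enriched regions. That of 2R held 91 combined regions, the widest of 63137 bp, and that of 3R held 97, the widest of 25131 bp. The stretch of 2L held 28, none wider than 7297 bp. Over the arms as a whole, 47 of 627 distances between successive domains were over 500 kb. Of 117 whole 1 Mb bins, 5 had no domain and the fullest, which starts at 8 Mb on 2L, had 13.

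Domains often lay near each other. At 50 kb this was more frequent on the autosomes than on X, and at 20 kb more frequent on X. Of the 632 domains, 368 (58.2%) had another domain within 50 kb, measured edge to edge, where 44.5% of all combined regions on the arms had a domain at this distance. The median distance to the nearest other domain was 36.3 kb. Measured to the same set, it was 32.1 kb for regions of 20 kb or more and 46.7 kb for regions of 4 to 10 kb. On X, 43.8% of domains had another within 50 kb, against 50.3% of X-linked regions of 4 to 10 kb. On the autosomes the order was the other way, with 61.1% of domains and 51.7% of regions of 4 to 10 kb. Within 20 kb, another domain was present for 41.9% of domains on X and 36.1% on the autosomes, where 24.7% of all combined regions had a domain so near. The share on X grew little from there to 50 kb. A region of 20 kb or more lay within 50 kb of 225 domains (35.6%), where it did so for 24.8% of all combined regions. This neighbourhood was also rarer on X (23.8%) than on the autosomes (37.95%). The median distance to such a region was 137193 bp for X domains and 86283 bp for autosomal ones. For all combined regions it was 183865 bp on X and 123674 bp on autosomes, so this difference was not particular to the domains. No chance level was computed for these shares.

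**Figure D2:**
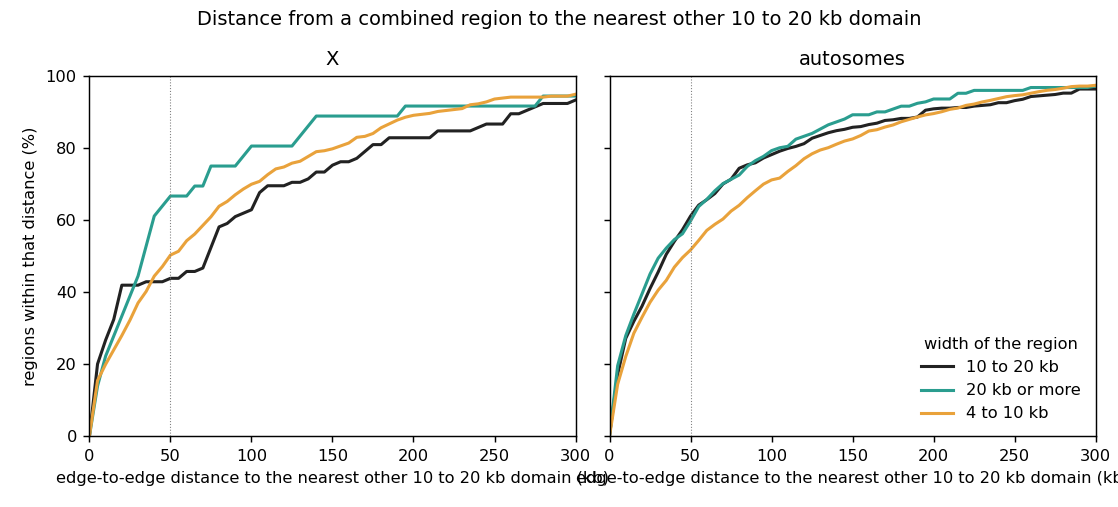
Each curve gives the share of combined regions (y axis, percent) whose nearest other 10 to 20 kb domain lies within the distance on the x axis (kb, edge to edge), on X and on the autosomes, by width of the region. At the dotted line of 50 kb the domains stand at 43.8% on X and 61.1% on the autosomes, and regions of 4 to 10 kb at 50.3% and 51.7%.

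Linking domains that lay at most 50 kb apart gave 399 runs. Of these, 264 were single domains, 73 held 2, 40 held 3, 14 held 4, and 8 held 5 to 7. The 22 runs of 4 or more domains contained 102 domains, 16.1% of the total. Distances between successive domains had a median of 83.4 kb and a range up to 1535 kb, and 58 of 627 were under 5 kb.

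The run with most domains lay at 2L:16442660-16722730, where 7 domains and 1 region of 20 kb or more were spread over 280.1 kb, and combined regions covered 67.0% of this span. Its domains were unlike each other in score and in filling, the share of the width of a domain that lies inside regions of a replicate. The last of them, 2L:16703010-16722730, had the highest combined score of the run, 1.36, and was filled to 99.7% by replicate 1 and 89.7% by replicate 2, each with a single region. At the other end, 2L:16442660-16452896 scored 0.69 and was filled to 26.6% by replicate 1 and 100% by replicate 2. Filling ran the opposite way at 2L:16542366-16553104, with 86.7% by replicate 1 and 38.3% by replicate 2. The remaining domains, 2L:16490330-16506694, 2L:16601786-16612062, 2L:16642280-16655898 and 2L:16685310-16698436, scored between 0.61 and 0.98. They were filled to between 80.5% and 91.1% by replicate 1 and to between 65.6% and 86.5% by replicate 2.

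Next, 4 runs held 6 domains each, and the 2 with most base pairs in domains are described. The first of these, X:3173386-3346080, held 6 domains in 172.7 kb and no region of 20 kb or more. Its first domains were nearly joined, since X:3173386-3184590, X:3184918-3202236 and X:3202336-3213010 were parted by 327 and 99 bp. Replicate 1 filled these to 100%, 87.6% and 90.5%, and replicate 2 to 46.8%, 65.6% and 75.7%. The next, X:3216864-3227542, was filled to 87.8% by replicate 1 and 34.4% by replicate 2. X:3261226-3279932 had the highest score of the run, 1.21, with 98.1% by replicate 1 and 85.9% by replicate 2. Of the 6, X:3327970-3346080 alone was filled more by replicate 2, with 72.1% by replicate 1 and 97.1% by replicate 2.

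In the other, 2L:8712274-8837742, 6 domains stood within 125.5 kb and combined regions covered 85.1% of the span. The first, 2L:8712274-8724172, scored 1.14 and appeared as a single region in each replicate, with 96.0% filled by replicate 1 and 98.6% by replicate 2. It lay 1.78 kb from a region of 20 kb or more. In the middle, 2L:8751800-8768508 had the lowest score of the run, 0.52, and broke into 5 regions in each replicate, with 60.2% filled by replicate 1 and 67.0% by replicate 2. The last, 2L:8823558-8837742, was 99.0% filled by replicate 1 and 54.6% by replicate 2, where an uncovered stretch of 5917 bp remained. The other domains, 2L:8730602-8743160, 2L:8776172-8789462 and 2L:8808722-8822086, were filled to 81.3% to 92.1% by replicate 1 and to 70.6% to 93.3% by replicate 2.

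Nearly all domains were found in both replicates over most of their width. Replicate 1 filled a domain to 85.6% on average (lowest 19.8%, median 90.4%, highest 100%) and replicate 2 to 82.2% (lowest 18.3%, median 85.5%, highest 100%), a mean of 83.9% ± 2.41 (SD, n = 2). Each of the 632 domains was touched by both replicates, where 55.9% of all combined regions on the arms were missed by at least 1 of them. The share missed went with width, at 90.8% under 2 kb, 38.5% at 2 to 4 kb, 6.90% at 4 to 10 kb and 0% at 20 kb or more. At least 50% of the width was covered by replicate 1 in 607 domains (96.0%), by replicate 2 in 609 (96.4%) and by both in 584 (92.4%). Over all combined regions these shares were 54.2%, 57.2% and 35.1%. Such coverage by both held for 285 of 287 regions of 20 kb or more (99.3%) and for 1135 of 1738 regions of 4 to 10 kb (65.3%). A stricter limit of 90% of the width in both replicates was met by 126 domains (19.9%), where 6.05% of all combined regions met it. Regions of 20 kb or more met it in 38.0% of cases and regions of 4 to 10 kb in 7.71%. Beside the lower width limit, replicate 1 filled the 2 narrowest domains to 100% and 73.2%, and the 2 regions just outside to 98.5% and 80.6%. Replicate 2 filled the same domains to 65.1% and 97.3%, and the regions outside to 97.1% and 82.4%.

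**Figure D3:**
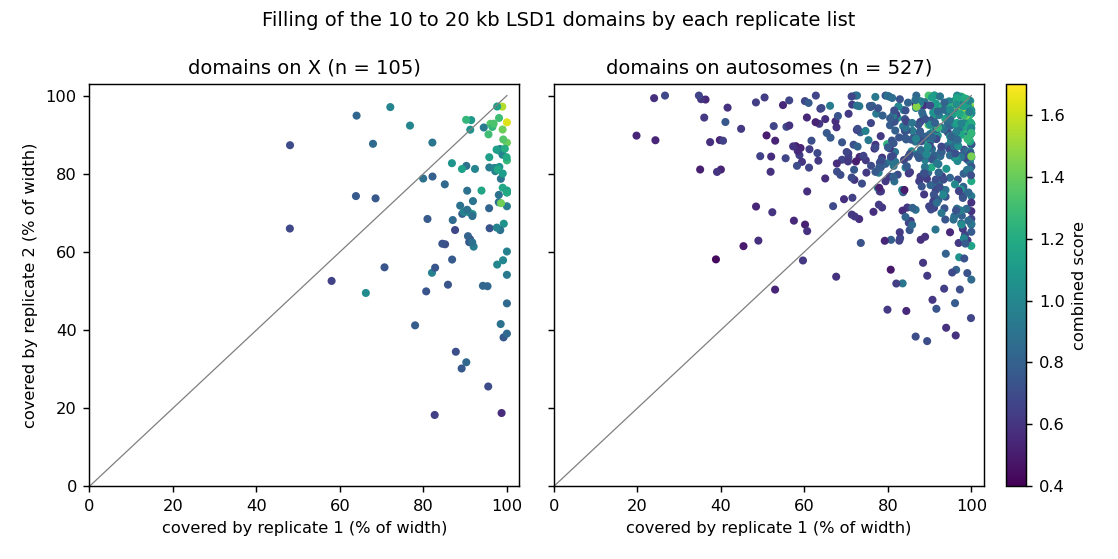
Each point is a 10 to 20 kb domain, placed by the share of its width covered by replicate 1 (x axis, percent) and by replicate 2 (y axis, percent) and coloured by combined score, with X on the left, autosomes on the right, and the line of equal shares in grey. On X, 93 of 105 points lie below the line, and on the autosomes 281 of 527.

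The gaps left by a replicate were mostly filled by the other. Of the base pairs of all domains, 71.9% were covered by both replicates, 14.3% by replicate 1 alone, 10.5% by replicate 2 alone and 3.26% by neither. Replicate 2 covered 83.4% of what replicate 1 covered and 76.4% of what replicate 1 did not cover. In the reverse direction, replicate 1 covered 87.2% of what replicate 2 covered and 81.5% of what it did not cover. Filling by one replicate hardly followed filling by the other from domain to domain, with a Spearman coefficient of −0.031 over the 632 domains, 0.14 over the 105 on X and 0.0095 over the 527 on autosomes. The combined list that set the domains stems from the same libraries, so the share covered by neither is held low by the choice of domains. This choice also bears on the coefficients. The domains share their libraries, and these coefficients describe regions and not replicates.

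Among the best filled domains, 2L:9519936-9536046 was covered to 99.0% by replicate 1 and 99.0% by replicate 2, as a single region in each. Next came 3L:16029420-16046010 (99.4% by replicate 1, 98.9% by replicate 2) and 3R:23393926-23408862 (99.5% and 98.7%), both as 1 region in replicate 1 and 2 regions in replicate 2. At the other end, 48 domains were filled to less than 50% by 1 of the replicates and 0 by both. The remaining 584 (92.4%) reached 50% in both, where 35.1% of all combined regions on the arms did. Low filling by both is also held rare by the choice of domains. The examples that follow were picked for low filling in a replicate or for the largest differences, so their unevenness was fixed by the choice. X:5010654-5022114 was filled to 82.7% by replicate 1 and 18.3% by replicate 2, and X:5260170-5273010 to 98.7% by replicate 1 and 18.8% by replicate 2. At X:10534664-10549650 the shares were 95.5% and 25.5%. The reverse was seen at 3L:18922636-18932780, with 19.8% by replicate 1 and 89.7% by replicate 2, and at 2L:1732410-1746002, with 24.0% and 99.3%. A difference of at least 30 percentage points in favour of replicate 1 was present in 60 domains, 23 of them on X, and in favour of replicate 2 in 38, 2 of them on X. These were 9.49% and 6.01% of the domains, where 21.2% and 24.2% of all combined regions on the arms differed so far.

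Although well filled, most domains were split in at least 1 replicate. Replicate 1 had a single region in 279 domains (44.1%), 2 regions in 197, 3 in 110 and 4 or more in 46. Replicate 2 had a single region in 158 (25%), 2 regions in 235, 3 in 140 and 4 or more in 99, and the highest number was 6 in each replicate. A single region in both was seen in 106 domains (16.8%), where this held for 26.7% of all combined regions, most of them narrower. When a region had to span at least 90% of the width by itself, 214 domains (33.9%) met this in replicate 1, 105 (16.6%) in replicate 2 and 60 (9.49%) in both, where 4.16% of all combined regions met it in both. The mean of the replicates was 25.2% ± 12.2 (SD, n = 2), and over all combined regions the shares were 24.2% in replicate 1 and 21.5% in replicate 2, so the domains stood above the rest in replicate 1 and below them in replicate 2. Regions of 20 kb or more gave 40.4% in replicate 1 and 9.76% in replicate 2.

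**Figure D4:**
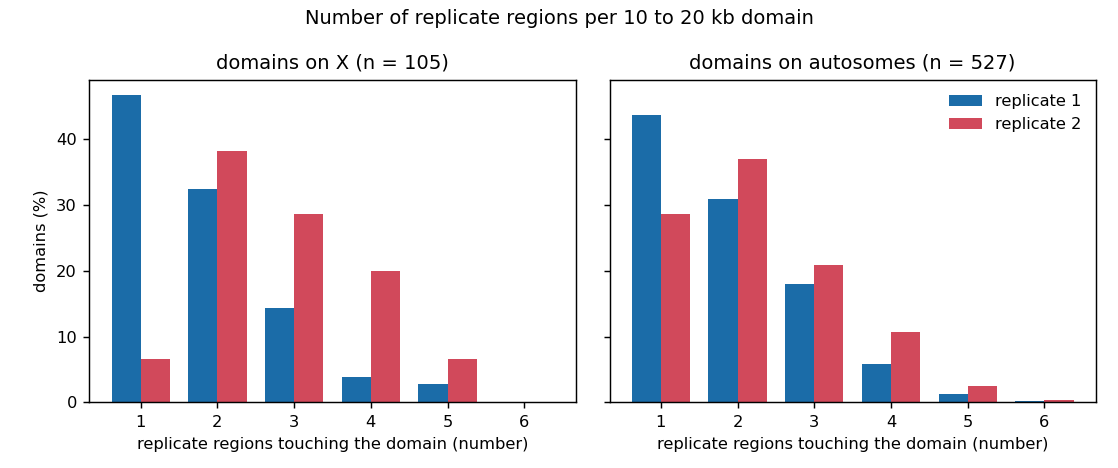
Bars give the share of 10 to 20 kb domains (y axis, percent) touched by the number of replicate regions on the x axis, for replicate 1 (blue) and replicate 2 (red), with X on the left and autosomes on the right. On X, 46.7% of domains are a single region in replicate 1 and 6.67% in replicate 2, and on the autosomes 43.6% and 28.7%.

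Breaks between replicate regions inside a domain were mostly short. Replicate 1 had 567 such breaks in 353 domains, with a median of 508 bp, and 423 of them (74.6%) were under 1 kb. Replicate 2 had 836 in 474 domains, with a median of 520 bp, and 585 (70.0%) were under 1 kb. The longest uncovered stretch of a domain, unfilled ends included, had a median of 932 bp in replicate 1 and 1233 bp in replicate 2. When replicate regions less than 1 kb apart were joined, the share of domains held by 1 region over at least 90% of the width became 49.8% as a mean of the replicates, while the mean filling became 86.3%.

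Filling was highest in the middle of a domain and lowest at its borders. The borders are those of the combined list, which stems from the same libraries. A replicate region that stops short of a border lowers the outer bins, so this shape can follow from how the domains were set. In the centre, 20% of the width, the mean covered share was 91.4% in replicate 1 and 88.5% in replicate 2. In the outer 10% on each side it was 69.5% and 63.4%, so that centre and edges differed by 23.5 percentage points ± 2.26 (SD, n = 2). The border of the outermost replicate region lay inside the border of the domain by a median of 145 bp in replicate 1 and 274 bp in replicate 2. Of 1264 borders, 760 (60.1%) in replicate 1 and 703 (55.6%) in replicate 2 were matched within 500 bp. Regions of replicate 1 ran past a border by 1 kb or more in 92 domains (14.6%), and those of replicate 2 in 56 (8.86%).

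**Figure D5:**
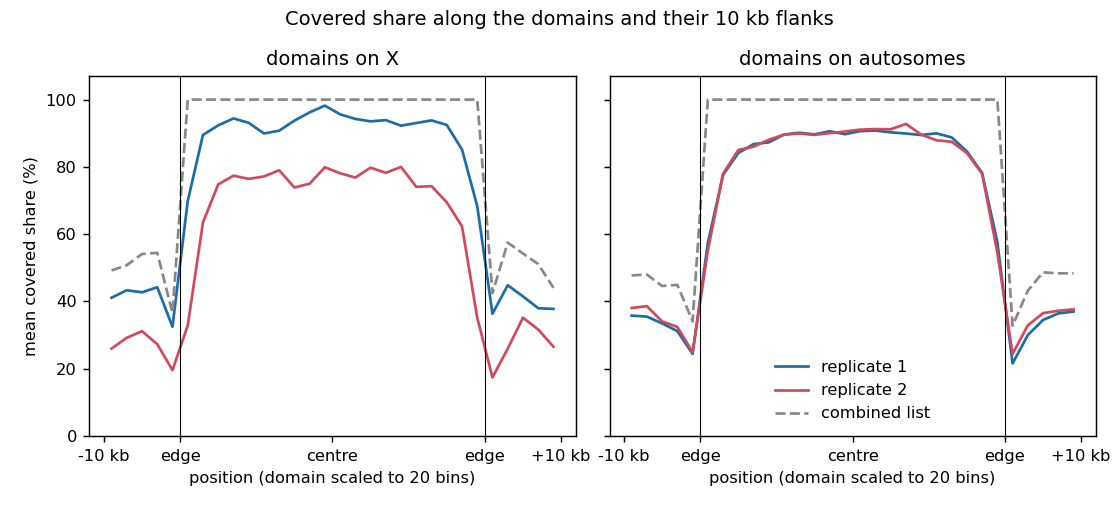
Lines give the mean covered share (y axis, percent) along the domains, scaled to 20 bins, and in 2 kb bins of the 10 kb flanks on each side (x axis), for replicate 1, replicate 2 and the combined list, with X on the left and autosomes on the right. On X the centre stands at 96.1% in replicate 1 and 77.5% in replicate 2, and on the autosomes at 90.4% and 90.7%.

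Over all domains, coverage just beyond the borders was below that of the 5 arms as a whole, and further out above it. On X the first part did not hold for the combined list or replicate 1. The flanking 2 kb were covered to 34.5% by the combined list and those 8 to 10 kb away to 47.8%, where the list covered 36.95% of the 5 arms as a whole. In replicate 1 the values were 24.9% and 36.9%, against 27.0% of the arms, and in replicate 2 23.6% and 35.9%, against 27.9%. For domains on X, the flanking 2 kb were covered to 39.5% by the combined list, against 36.1% of X. Replicate 1 covered 34.4% of them, against 27.8% of X, and replicate 2 18.5%, against 20.4%. For autosomal domains the combined list covered 33.4% of the flanking 2 kb, against 37.2% of the autosomes. By definition a region ends where its list has a gap, which lowers the bins beside the border. Another combined region lay within 1 kb of 371 domains (58.7%), where this held for 52.1% of all combined regions on the arms, 61.0% of regions of 20 kb or more and 63.3% of regions of 4 to 10 kb.

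Which regions fell in the class of 10 to 20 kb depended on short gaps in the combined list. The other width classes were not followed in this way. Joining combined regions less than 500 bp apart put 168 domains (26.6%) into stretches of 20 kb or more, joining at 1 kb put 245 (38.8%) there and joining at 2 kb put 340 (53.8%) there. The class itself did not shrink, since joining at 1 kb gave 751 stretches of 10 to 20 kb, against 632 domains. Next to the domains, 458 gaps between combined regions were shorter than 1 kb, with a median of 288 bp. A region of replicate 1 ran across 89 of these gaps (19.4%) and one of replicate 2 across 65 (14.2%). At least 1 replicate crossed 152 of them (33.2%), and both replicates crossed the same gap in 2 cases.

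A replicate region of this width was often part of a combined region of another width class. Of the 435 regions of replicate 1 that were themselves 10 to 20 kb wide, 281 (64.6%) lay mainly in the domains, 132 (30.3%) in combined regions of 20 kb or more and 22 (5.06%) in regions of 4 to 10 kb. Replicate 2 had 362 such regions, with 182 (50.3%) in the domains, 168 (46.4%) in regions of 20 kb or more and 12 (3.31%) in regions of 4 to 10 kb.

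X stood apart from the autosomes in how the replicates filled the domains. On X, replicate 1 filled them to 90.5% and replicate 2 to 70.9%, and on the autosomes the means were 84.7% and 84.5%. The difference between replicate 1 and replicate 2 was thus 19.6 percentage points on X and 0.18 on the autosomes, with 3.41 points over all domains. By arm it was −2.15 on 2L, −0.32 on 2R, 4.85 on 3L and −1.58 on 3R. Replicate 1 filled the domain more than replicate 2 in 93 of 105 domains on X (88.6%) and in 281 of 527 on autosomes (53.3%). Over all combined regions, X and autosomes pooled, replicate 1 had the larger share in 40%, and the rest includes regions with equal shares. Over all combined regions the mean difference was 17.9 points on X and −7.21 on autosomes. A similar gap was present in other widths, with 19.5 points on X and −4.77 on autosomes for regions of 4 to 10 kb, and 14.8 and 3.63 points for regions of 20 kb or more. It went with the lists as a whole, since replicate 1 covered 27.8% of X and 26.8% of the autosomes, and replicate 2 covered 20.4% of X and 29.6% of the autosomes. The part of this difference in the filling of the domains was not tested.

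Breaks within the domains on X followed the same division. The mean number of replicate 2 regions touching a domain was 2.82 on X and 2.22 on autosomes. For regions of 4 to 10 kb it was 1.33 and 1.44, and for regions of 20 kb or more 3.94 and 3.86. The higher number on X was thus absent at 4 to 10 kb and slight at 20 kb or more. Replicate 2 split the X domains into 3 or more regions in 58 of 105 cases (55.2%) and left them as a single region in 7, whereas on the autosomes these numbers were 181 (34.3%) and 151 (28.7%) of 527. Replicate 1 had 3 or more regions in 22 of 105 domains on X (21.0%) and in 134 of 527 on autosomes (25.4%). A single region over at least 90% of the width was present in replicate 1 in 44 domains on X (41.9%) and in 170 on autosomes (32.3%). In replicate 2 it was present in 0 of the 105 domains on X and in 105 on autosomes (19.9%). Over all combined regions on the arms these shares were 24.2% in replicate 1 and 21.5% in replicate 2. Coverage of at least 50% by both replicates was less frequent on X, at 90 of 105 (85.7%), than on the autosomes, at 494 of 527 (93.7%). Over all combined regions on the arms it was 35.1%.

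The deposited score of a region, whose scale no header names, was used to rank regions within a list. The domains had a median combined score of 0.81 (lowest 0.43, highest 1.63), that of regions of 20 kb or more was 0.92 and that of regions of 4 to 10 kb was 0.64. A score above the median of the list, 0.50, was held by 99.1% of the domains. X domains scored higher than autosomal ones in the combined list (median 0.93 against 0.79). This was not particular to the domains, since all combined regions had medians of 0.61 on X and 0.48 on autosomes. Regions of 4 to 10 kb had 0.75 and 0.61, and those of 20 kb or more 1.20 and 0.89. Within the domains, the scores of the replicate regions, weighted by width, had medians of 1.12 on X and 0.86 on autosomes in replicate 1, and of 1.02 and 0.98 in replicate 2.

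High-scoring domains were the better filled ones. From the lowest to the highest 25% of domains by combined score, mean filling by replicate 1 was 71.7%, 84.5%, 91.1% and 95.2%, and by replicate 2 it was 77.9%, 79.0%, 83.0% and 89.0%. The share covered to at least 90% by both replicates went along from 0.633% to 52.5%, and the share of domains on X from 3.16% to 27.2%. Spearman coefficients of combined score with filling were 0.62 for replicate 1 and 0.33 for replicate 2, and 0.55 and 0.67 on X alone (n = 105). On the autosomes (n = 527) they were 0.62 and 0.41, so for replicate 2 the pooled value lay below that of either part. Combined scores and replicate lists share their libraries, so this relation gives no separate evidence. Width varied little with filling, at a Spearman coefficient of 0.18 for replicate 1 and 0.025 for replicate 2.

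Most of the domains with the highest combined score were found nearly whole in both replicates. The first, X:1973486-1986200 (1.63), was filled to 100% by replicate 1 with a single region and to 93.2% by replicate 2 with 2 regions. Another X domain, X:6230854-6242020 (1.55), was filled to 98.9% and 97.2%, again as 1 and 2 regions. On 3L, 17946482 to 17959122 (1.55) was a single region in each replicate, with 97.8% by replicate 1 and 96.0% by replicate 2, and lay 1.19 kb from a region of 20 kb or more. 3R:3929946-3949022 (1.48) was filled to 96.3% and 97.6%. At 3L:9044766-9061056 (1.46), filling was 86.9% by replicate 1, with 2139 bp uncovered, and 97.2% by replicate 2. Both X domains lay close to another domain, at 4.47 kb and 1.60 kb, while the domain of 3R was 152.4 kb from the next.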

How the data were processed

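Regions of LSD1 ChIP-seq in adult fly heads were read from 3 deposited lists, 1 per ChIP library and 1 combined. Per the file headers, they hold regions of significant enrichment on release 5 of the fly genome. The submitters' processing notes name Bowtie 0.12.7. The sources used here do not name the region caller, its threshold, the read depth or how the lists were combined. The deposited score is the authors' value, and no header gives its scale. The labels pair each input library with the list of the ChIP library of the same number. The 3 entries typed as depletion were left out.

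Domains were combined regions of at least 10 kb and under 20 kb on 2L, 2R, 3L, 3R and X. Filling is the share of a domain's base pairs inside regions of a replicate, at 1 bp resolution. Distances are edge to edge. Interval arithmetic was checked on simulated lists (Python 3.11.15, numpy 2.4.6, pandas 2.3.3). No genome of release 5 was used, so no sequence is shown.

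Named domains were the 5 with the highest combined score, those of the 3 runs with most domains (ties by base pairs in domains), the 3 best and 3 least filled by the lower of the replicates, the 3 with the largest difference between replicates in each direction, and the 2 on each side of each width limit. The domains, these rules and the alternatives were chosen with earlier results of these data known.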

Additional observations from a re-analysis of the deposited data

How the results depend on the processing

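Of 39 alternatives for 7 results, 19 moved a value by less than its error and 20 by more. The error was the SD of the 2 replicates. For neighbouring domains it was the 95% Wilson interval of 54.3% to 62.0%, which covers counting of domains only. Leaving out a replicate shifts a mean of both by less than their SD by construction, so those alternatives could not count as more. For coverage by both replicates the error was the SD of the single-replicate shares, 0.224 points, so small changes counted as more. For the difference between replicates the error was derived from that same difference. The counts of 19 and 20 are thus no measure of stability. Restriction to the autosomes (other than for the difference between replicates) and joining of combined regions were chosen after seeing the data. Coverage by both replicates (92.4% of domains at 50% of the width) was 99.2% at 25%, 59.8% at 75% and 19.9% at 90% of the width, a stricter rule by construction. It was 92.9% with replicate regions joined across less than 1000 bp, 93.7% on autosome arms and 98.4% in the upper 50% of domains by score, and single replicates gave 96.0% to 96.4%. Mean filling, 83.9%, was 89.6% in the upper 50% by score and 80.9% for widths of 8 to 16 kb, and single replicates gave 82.2% to 85.6%. The share held by 1 region, 25.2%, was 49.8% with joined regions and 41.6% in the upper 50%, and single replicates gave 16.6% to 33.9%. The share with another domain within 50 kb, 58.2%, was 37.0% within 20 kb, 75.6% within 100 kb and 74.8% with any region of at least 10 kb as neighbour. It was 33.9% in the upper 50%, where fewer domains are present by construction. The ratio of X to autosomes was 1.41 in the upper 50%, against 0.858, so that its direction turned; the cause was not tested. Centre minus edges, 23.5 points, was 34.6 with the outer bin alone, and single replicates gave 21.9 to 25.1. The difference between replicates, 3.41 points, was 7.15 in the upper 50% and 0.18 on the autosomes, where X is left out. No paired analysis was possible because each replicate number has a single ChIP list and the input libraries have none. Depth is unknown, so regions missed for want of reads cannot be told from regions without enrichment.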
